A study of Mus musculus with 79 samples.

Results

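A set of 10 genes of the sirtuin and NAD pathway was examined in quadriceps muscle of the BXD family of mice. The array table holds 22335 gene symbols, of which the 10 taken here were the sirtuins Sirt1, Sirt2, Sirt3, Sirt5 and Sirt6, the NAD synthesis enzymes Nampt, Nmnat1 and Nmnat3, and the NAD consumers Parp1 and Cd38. They were chosen by name and not by a threshold on their values. All 10 were on the array with 1 probeset each, so no choice between probesets was needed. Their probesets lay between the 66.6th and the 95.8th percentile of mean value among the 35556 probesets of the array.

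The BXD strains are inbred lines bred from C57BL/6J and DBA/2J mice, and both parents were included. Males were fasted overnight and killed at 29 weeks of age. The CD group was kept on a chow diet, and the HFD group was moved to a high fat diet at 8 weeks. Each array held RNA pooled from about 5 animals of 1 strain on 1 diet, so variation among mice of 1 strain is averaged away and cannot be estimated. Strains take the place of replicates here. The p-values of the main diet fit measure the spread between strain pools, and that fit does not use the pairing of arrays by strain. Fits with a term per strain measure the spread that is left once strain, diet and batch are removed. Permutation p-values come from shuffling the strains. The 79 arrays were 42 on CD and 37 on HFD, run in 2 batches that each held both diets. They came from 42 strains, and 37 of these were profiled on both diets. Values are deposited scores, scaled to the same mean (8.0 units) and SD (2.0 units) on all arrays. They behave like logs of unstated base, and differences are therefore given in score units and not as folds.

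NAD is a coenzyme of fuel oxidation and at the same time a substrate that several enzymes break down. Sirtuins use it to remove acyl groups from proteins, PARPs use it to build ADP-ribose chains at damaged DNA, and CD38 hydrolyses it. All of these enzymes release nicotinamide, which Nampt turns into nicotinamide mononucleotide (NMN) in the rate-limiting step of the salvage route. The Nmnat enzymes then turn NMN into NAD. In muscle, NAD is central to the oxidation of fatty acids and carbohydrate in mitochondria.

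Of the 10 genes, 4 differed between diets. Sirt1 and Parp1 fell on HFD, and Cd38 and Nmnat3 rose. Calls were made with limma at a Benjamini-Hochberg adjusted p below 0.05 over all probesets. The same rule called 38.1% of all probesets, 18.9% as higher in HFD and 19.3% as lower, so 4 of 10 is near the share of the whole array. Calls were rarer among bright probesets. When probesets were ordered by brightness in 10 equal bins, the members lay in bins 7 to 10, where 35.1%, 31.6%, 26.7% and 24.7% of probesets were called, in that order. The median absolute difference between diets was 0.056 units over the members and 0.076 units over all probesets.

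The promoter windows of these 4 genes are shown because both members that fell carry a short motif that the other 8 members lack. Each window runs from 250 bases before to 50 bases after the gene's start in RefSeq (GRCm38.p6) and is read 5′ to 3′ on the gene's own strand, with every E-box (CACGTG, the same on both strands) in capitals. The windows are chr10:63338986-63339285 on the minus strand for Sirt1, chr1:180568641-180568940 on the plus strand for Parp1, chr5:43868559-43868858 on the plus strand for Cd38 and chr9:98296320-98296619 on the plus strand for Nmnat3.
Sirt1: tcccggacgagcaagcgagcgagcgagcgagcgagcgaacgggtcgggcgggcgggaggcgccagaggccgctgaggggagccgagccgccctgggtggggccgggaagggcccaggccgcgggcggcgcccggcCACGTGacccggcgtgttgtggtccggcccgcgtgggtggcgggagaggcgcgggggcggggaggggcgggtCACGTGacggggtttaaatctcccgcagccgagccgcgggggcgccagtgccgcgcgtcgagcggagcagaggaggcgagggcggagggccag
Parp1: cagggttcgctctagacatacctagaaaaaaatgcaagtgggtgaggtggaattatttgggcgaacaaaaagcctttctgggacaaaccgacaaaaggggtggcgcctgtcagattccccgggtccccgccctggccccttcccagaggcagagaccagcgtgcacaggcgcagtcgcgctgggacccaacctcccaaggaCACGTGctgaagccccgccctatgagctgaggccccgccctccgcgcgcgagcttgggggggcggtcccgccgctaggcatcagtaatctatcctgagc
Cd38: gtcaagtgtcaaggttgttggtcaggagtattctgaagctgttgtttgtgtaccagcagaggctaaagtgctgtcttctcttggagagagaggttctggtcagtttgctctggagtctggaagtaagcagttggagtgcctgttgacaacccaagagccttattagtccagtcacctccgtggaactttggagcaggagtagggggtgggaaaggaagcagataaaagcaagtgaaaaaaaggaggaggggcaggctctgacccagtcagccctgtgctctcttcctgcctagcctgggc
Nmnat3: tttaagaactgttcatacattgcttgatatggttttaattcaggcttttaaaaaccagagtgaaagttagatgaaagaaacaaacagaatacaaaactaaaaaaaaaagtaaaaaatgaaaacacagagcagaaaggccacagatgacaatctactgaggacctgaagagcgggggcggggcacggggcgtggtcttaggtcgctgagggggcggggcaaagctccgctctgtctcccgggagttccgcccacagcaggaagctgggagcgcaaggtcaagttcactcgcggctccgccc

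All 10 members matched a window of the RefSeq table, in 13 windows, since some genes have more than 1 start. The Sirt1 window holds 2 E-boxes, which begin 115 and 43 bases before the start. The Parp1 window holds 1, which begins 49 bases before the start. The other 11 windows, of the other 8 members, hold none. An E-box of these letters is present in 7.15% of all 32851 windows. It was not more frequent in genes that fell. Genes of the array with a window were counted once each, with a match in any of their windows. The motif was present in 7.37% of the 3025 called lower in HFD, in 9.76% of the 3023 called higher and in 10.1% of the 8312 not called. These shares per gene cannot be set beside the share per window. These matches describe the letters of a window and do not show that a factor binds there.

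A further 4 motifs were searched on both strands. The GC box (GGGCGG) was present in 10 of the 13 windows of the members and in 35.7% of all windows. Sirt1 had 7 copies, of which 1 pair overlaps, Nampt had 5, and Parp1 and Nmnat3 had 4 each. The Cd38 window held none of the 5 motifs. No GC box overlaps an E-box. The CCAAT box (CCAAT) was present in 5 of the 13 windows and in 37.4% of all windows. The cAMP response element (TGACGTCA) and the TATA box (TATAAA), present in 1.79% and 13.6% of all windows, were in none of the members. The windows also differ in base composition, since 79% of the Sirt1 window was G or C, against 62% for Parp1, 51.7% for Cd38 and 49% for Nmnat3.

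**Figure D1:**
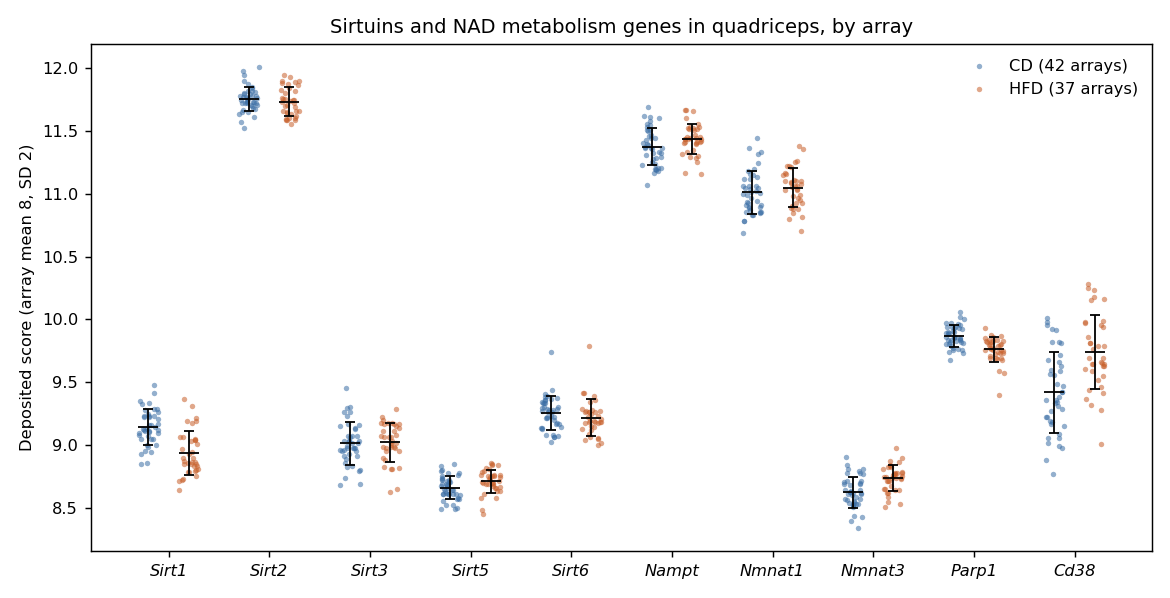
Deposited score (y axis, array mean 8, SD 2) of the 10 members on each array, with CD in blue (42 arrays) and HFD in orange (37 arrays), and with black bars for the mean and SD. The Sirt1 and Parp1 clouds sit lower on HFD and the Cd38 and Nmnat3 clouds higher, all with overlap, while Sirt6 has 1 array far above the rest on each diet. Levels of different genes are not comparable, because each probeset has its own brightness.

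Sirt1, a deacetylase of the nucleus that acts on many transcription factors, fell the most of the 10 genes. On CD its score was lowest in BXD68 (8.85), had a median of 9.13 and was highest in BXD64 (9.48). On HFD it was lowest in BXD75 (8.64), had a median of 8.87 and was highest in BXD44 (9.37). The ranges of the diets overlap, but 40 of 42 CD arrays lay above the HFD median and only 6 of 37 HFD arrays above the CD median. The mean was 9.14 ± 0.14 (SD, n = 42) on CD and 8.93 ± 0.17 (SD, n = 37) on HFD. The fitted difference, HFD minus CD, was -0.21 units (SE 0.0359, adjusted p 1.78e-06). It was -0.20 units within batch 1 and -0.22 within batch 2. Across the array no probeset had a diet by batch term with an unadjusted p below 0.05, as if values had been centred by batch within each diet, so likeness between batches is no sign that a difference repeats, here or for the other genes.

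The fall of Sirt1 was present in 31 of the 37 paired strains. The largest falls were in BXD75 (from 9.225 to 8.643), BXD73 (from 9.416 to 8.846) and BXD87 (from 9.326 to 8.796). BXD69 (from 8.861 to 9.216) and BXD68 (from 8.85 to 9.191) moved the other way by more than 0.3 units. Both were among the lowest strains on CD. The other 4 strains that were higher on HFD, DBA/2J, BXD79, BXD66 and BXD44, moved by 0.04 to 0.104 units.

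The other sirtuins among the members showed no difference past the threshold. Sirt2, a mostly cytoplasmic deacetylase, ran from 11.52 (BXD92a) to 12.01 (BXD89) on CD, with a median of 11.75, and from 11.56 (BXD69) to 11.95 (BXD80) on HFD, with a median of 11.73. Its difference was -0.02 units (95% interval -0.07 to 0.03, adjusted p 0.515). Sirt3, the main deacetylase of mitochondria, ran from 8.68 (BXD70) to 9.45 (BXD85) on CD, with a median of 9.0, and from 8.63 (BXD83) to 9.28 (BXD45) on HFD, with a median of 9.04. Its difference was 0.01 units (95% interval -0.07 to 0.08, adjusted p 0.889). Both diets thus overlapped almost fully for these genes, and their intervals exclude a change of the size seen for Sirt1.

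Sirt5, a mitochondrial enzyme that removes succinyl and malonyl groups, lay just outside the threshold. It ran from 8.49 (BXD71) to 8.85 (BXD68) on CD, with a median of 8.66, and from 8.46 (BXD43) to 8.86 (BXD84) on HFD, with a median of 8.72. The difference was 0.05 units (95% interval 0.01 to 0.09, adjusted p 0.054), and 24 of 37 strains were higher on HFD. It passed the threshold in the methods' t-test (adjusted p 0.044), with arrays centred on their medians (adjusted p 0.0145) and with the slow fibre marker mean as a covariate (adjusted p 0.0374). With the endothelial marker mean as a covariate the difference was 0.011 units (adjusted p 0.739), so the adjusted p ran from 0.0145 to 0.739 over 17 alternatives. Sirt6, a chromatin deacylase, ran from 9.03 (BXD99) to 9.74 (BXD90) on CD, with a median of 9.27, and from 9.0 (BXD80) to 9.79 (BXD90) on HFD, with a median of 9.19. Its difference was -0.04 units (95% interval -0.1 to 0.03, adjusted p 0.384).

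Among the synthesis genes, Nmnat3 rose on HFD. The enzyme it encodes is placed in mitochondria. On CD its score was lowest in BXD96 (8.34), had a median of 8.62 and was highest in BXD63 (8.91). On HFD it was lowest in BXD83 (8.51), had a median of 8.75 and was highest in BXD100 (8.97). The ranges overlap, yet 32 of 37 HFD arrays lay above the CD median. The mean was 8.63 ± 0.12 (SD, n = 42) on CD and 8.73 ± 0.1 (SD, n = 37) on HFD. The fitted difference was 0.11 units (SE 0.0266, adjusted p 0.000603), and 30 of 37 strains were higher on HFD. The largest rises were in BXD64 (from 8.435 to 8.845), BXD75 (from 8.431 to 8.787) and BXD71 (from 8.397 to 8.734), and the largest fall was in BXD83 (from 8.793 to 8.509). Within batch 2 alone the difference was 0.13 units (adjusted p 0.00266). Within batch 1 alone it was 0.09 units and did not pass the threshold (adjusted p 0.23), the only one of 17 alternatives in which the call was lost.

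Nampt and Nmnat1 showed smaller differences. Nampt ran from 11.07 (BXD48) to 11.69 (BXD43) on CD, with a median of 11.36, and from 11.16 (BXD87) to 11.67 (BXD69) on HFD, with a median of 11.44. The difference was 0.06 units (SE 0.0313, adjusted p 0.119), with 23 of 37 strains higher on HFD. With strain as a block it was 0.06 units and passed the threshold (adjusted p 0.0254), in a fit that called 40.6% of all probesets. Over the 17 alternatives its adjusted p ran from 0.0254 to 0.417. Nmnat1, the nuclear enzyme of the Nmnat family, ran from 10.69 (BXD60) to 11.44 (BXD89) on CD, with a median of 11.003, and from 10.7 (BXD84) to 11.38 (BXD83) on HFD, with a median of 11.06. Its difference was 0.03 units (95% interval -0.04 to 0.11, adjusted p 0.5), and 20 of 37 strains were higher on HFD.

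The consumers Parp1 and Cd38 moved in opposite directions. Parp1, a DNA damage sensor that spends NAD on ADP-ribose chains, was lowest in BXD98 (9.68), had a median of 9.86 and was highest in BXD95 (10.06) on CD. On HFD it was lowest in BXD62 (9.4), had a median of 9.77 and was highest in BXD98 (9.93). The same strain, BXD98, was thus the lowest on CD and the highest on HFD. Of the CD arrays 36 of 42 lay above the HFD median, and 4 of 37 HFD arrays lay above the CD median. The mean was 9.87 ± 0.08 (SD, n = 42) on CD and 9.76 ± 0.1 (SD, n = 37) on HFD. The difference was -0.11 units (SE 0.0214, adjusted p 3.3e-05), and 29 of 37 strains were lower on HFD.

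Cd38, a membrane enzyme that hydrolyses NAD and is known from immune cells, rose the most of the 10 genes. On CD its score was lowest in BXD83 (8.77), had a median of 9.37 and was highest in BXD81 (10.01). On HFD it was lowest in BXD56 (9.01), had a median of 9.69 and was highest in BXD96 (10.28). The ranges overlap widely, since 9 of 42 CD arrays lay above the HFD median and 33 of 37 HFD arrays above the CD median. The mean was 9.42 ± 0.32 (SD, n = 42) on CD and 9.74 ± 0.3 (SD, n = 37) on HFD. The difference was 0.32 units (SE 0.0697, adjusted p 0.000128). The values by batch, 0.31 and 0.33 units, carry the limit given for Sirt1.

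The rise of Cd38 was present in 31 of 37 strains. It was largest in BXD83 (from 8.767 to 9.63), BXD71 (from 9.013 to 9.811), BXD62 (from 9.423 to 10.181), BXD70 (from 8.99 to 9.647) and BXD43 (from 9.167 to 9.787). The strains that were lower on HFD were BXD56, BXD63, BXD75, BXD89, BXD103 and BXD64, and only BXD56 (from 9.288 to 9.005) and BXD63 (from 9.819 to 9.694) fell by more than 0.1 units.

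**Figure D2:**
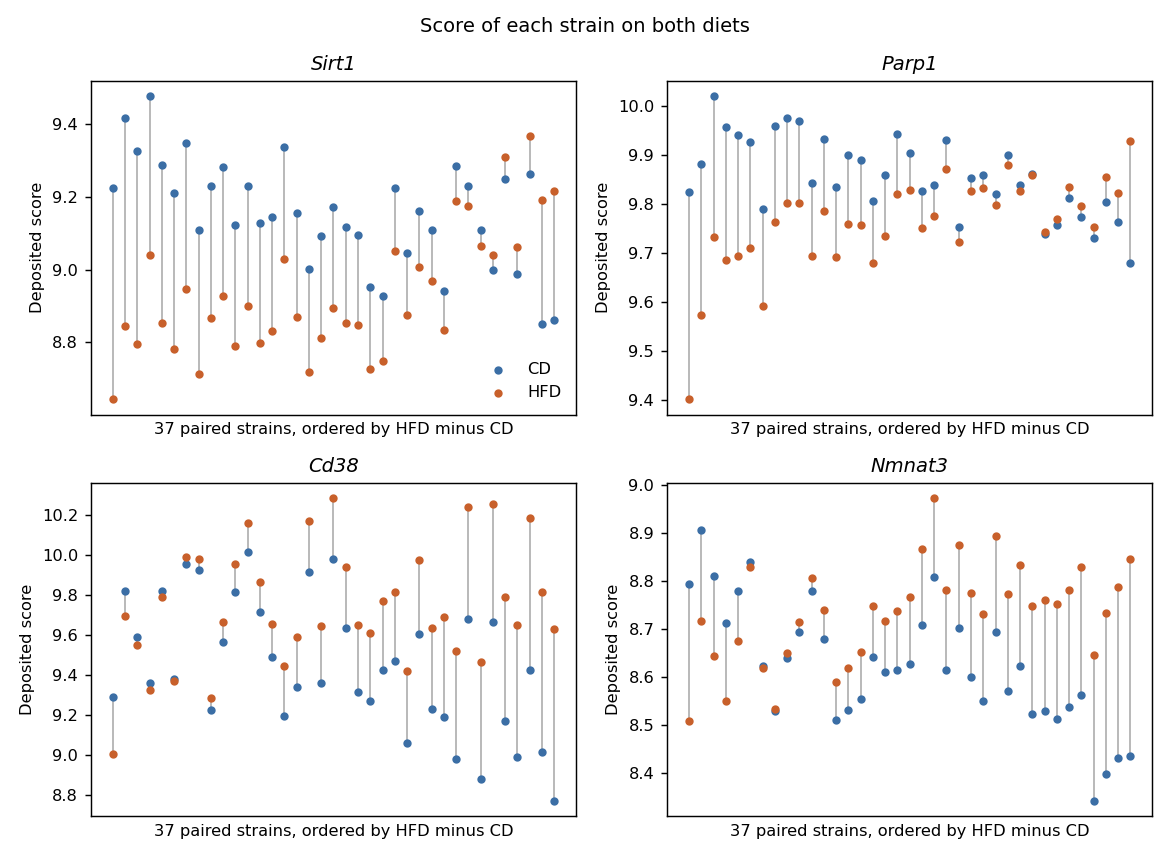
Deposited score (y axis) of Sirt1, Parp1, Cd38 and Nmnat3 on CD (blue) and HFD (orange) in each of the 37 paired strains, ordered from left to right by HFD minus CD, with a grey line joining the arrays of a strain. Sirt1 was lower on HFD in 31 strains and Parp1 in 29, while Cd38 was higher in 31 strains and Nmnat3 in 30.

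Markers of other cells moved with diet beside these genes. In bulk muscle, more cells of a type and more RNA per cell cannot be told apart. The tissue label was borne out, since all 8 skeletal muscle markers lay at or above the 99.3rd percentile of brightness and their mean level was 14.48 ± 0.05 on CD and 14.5 ± 0.07 on HFD. Of 8 adipocyte markers 6 were called higher in HFD and 1 lower, and their mean level ranged from 9.37 to 10.96 on CD and from 9.51 to 11.38 on HFD. Of 8 macrophage markers 5 were called higher, with a mean level from 8.13 to 8.82 on CD and from 8.23 to 9.13 on HFD. Of 5 endothelial markers 4 were called higher, with a mean level from 9.78 to 10.58 on CD and from 10.11 to 10.7 on HFD. None of the 7 slow fibre markers was called. Of 5 B cell markers none was called higher and 3 were called lower, with a mean level of 7.15 on CD and 7.12 on HFD, below the array mean of 8.0.

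All 4 diet calls were kept with the adipocyte, macrophage, endothelial or slow fibre marker mean added to the fit as a covariate, in alternatives chosen after the data were seen. Cd38 was 0.21 units in place of 0.32 with the endothelial mean (adjusted p 0.0201, the highest over 17 alternatives), 0.34 with the adipocyte mean and 0.32 with the macrophage mean. Sirt1 was -0.23, -0.20 and -0.22 units in the same order. The mean of the olfactory receptor probesets, genes that muscle is not known to use, was also lower on HFD in 28 of 37 strains. With it as a covariate Cd38 was 0.22 units (adjusted p 0.0136) and Sirt1 -0.27 units (adjusted p 4e-09). The part of cell makeup or of array background in these differences was not tested beyond these fits. Strain BXD63 stood apart from the other strains. Its HFD minus CD profile over 1154 olfactory receptor probesets had r -0.54 with the mean profile of the other 36 strains, where each of those gave 0.42 to 0.65 across probesets. In this strain Cd38 (-0.125 units) and Nmnat3 (-0.189 units) moved against the panel. Without it all 4 calls were kept, with adjusted p between 1.64e-06 and 0.000198.

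The wider NAD pathway was described with a list of 38 other genes, all on the array. Of these 21 were called between diets, 7 higher and 14 lower in HFD, beside 38.1% of all probesets called, 18.9% higher and 19.3% lower. The counts by branch below are read against the same shares, and nothing particular to a branch is drawn from them. The median difference of the list was 0.006 units, beside -0.001 over all probesets. With the marker and olfactory receptor means as covariates fewer list genes were called, 17 with the adipocyte mean, 17 with the macrophage mean, 15 with the endothelial mean and 16 with the olfactory receptor mean, while the slow fibre mean left 21. The genes that lost their call were Kmo, Parp2, Tnks2 and Nnmt with the adipocyte mean, and Nmrk2, Kmo, Parp2 and Nudt12 with the macrophage mean. With the endothelial mean they were Naprt, Nmrk2, Parp2, Parp10, Parp14 and Tnks2, and with the olfactory receptor mean Nmrk2, Qprt, Parp2, Parp14 and Nudt12. Of the 24 list genes in the brighter 50% of probesets 12 were called, and of the 14 dimmer ones 9.

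In the synthesis branch, Nmrk2, a kinase of muscle that feeds nicotinamide riboside into NAD, had the largest difference of the list. It rose from 11.42 ± 0.68 (SD, n = 42) on CD to 11.81 ± 0.62 (SD, n = 37) on HFD, a difference of 0.38 units (SE 0.145, adjusted p 0.0283), and was higher in 31 of 37 strains. The difference was not called with the endothelial (0.264 units, adjusted p 0.207), macrophage (0.284 units, adjusted p 0.159) or olfactory receptor mean (0.312 units, adjusted p 0.13) as a covariate. The SD over strains on each diet was larger than the diet difference, and scores ran from 10.08 to 12.84 on CD alone. Of the 10 synthesis genes 3 were called, 1 higher and 2 lower.

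In the branch from tryptophan to NAD 7 of 8 genes were called, 2 higher and 5 lower. Ido2 and Ido1, which open the kynurenine route, fell by 0.25 units (adjusted p 8.88e-09) and 0.18 units (adjusted p 1.81e-05). Tdo2, the liver enzyme for the same step, fell by 0.18 units (adjusted p 0.000793). Its highest arrays, BXD66 on CD (6.01) and BXD51 on HFD (5.52), were also the highest for the liver marker Alb, at 11.59 and 11.64 against medians of 7.06 on CD and 6.91 on HFD. Without these strains, a fit added after the data were seen, Tdo2 fell by 0.175 units (adjusted p 7.12e-05), and the calls of all 10 members were as before. Haao fell by 0.19 units (adjusted p 2.68e-05), and Acmsd, which diverts the route away from NAD, fell by 0.23 units (adjusted p 5.95e-07). Kynu rose by 0.20 units (adjusted p 6.94e-05). All 6 of these genes lay in the dimmer 50% of probesets, between the 6.7th and the 47th percentile, and calls were more frequent there across the array, with 41.8% to 49.1% in bins 1 to 5. Their mean levels were below the array mean of 8.0 on both diets, so whether the route is expressed in this muscle cannot be read from them.

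Among breakdown genes, Nnmt, which methylates nicotinamide and so takes it out of the salvage route, rose from 8.01 ± 0.22 on CD to 8.31 ± 0.32 on HFD, by 0.30 units (SE 0.0611, adjusted p 5.73e-05), in 30 of 37 strains. With the adipocyte mean as a covariate the difference was 0.101 units and was not called (adjusted p 0.141). Pnp, a phosphorylase that cleaves nicotinamide riboside, fell by 0.20 units (adjusted p 0.0265), and was not called with each array centred on its median (-0.181 units, adjusted p 0.0519). Of the 5 breakdown genes 3 were called, 2 higher and 1 lower.

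Of the 13 other consumers 7 were called, 2 higher and 5 lower. Sarm1, an NAD hydrolase of nerve, fell by 0.17 units (adjusted p 3.08e-05) and lay at the 31.1st percentile of brightness. Tnks, a PARP of telomeres and of the Wnt pathway, fell by 0.14 units (adjusted p 0.000344). Parp14, a mono-ADP-ribosyltransferase induced by interferon, rose by 0.15 units (adjusted p 0.00411), but was not called with the endothelial (0.09 units, adjusted p 0.136) or the olfactory receptor mean (0.088 units, adjusted p 0.138) as a covariate.

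The other 9 called genes of the list changed by less, and are named here after their values were seen. Of these, Sirt4 and Art1 kept their calls with each of the marker and olfactory receptor means as a covariate, and the other 7 each lost it with at least 1 of them. Sirt4, a mitochondrial sirtuin, fell by 0.10 units (adjusted p 0.000154), while the other of the 2 remaining sirtuins, Sirt7, gave 0.01 units (adjusted p 0.765). Qprt, which closes the kynurenine route to NAD, fell by 0.11 units (adjusted p 0.00548), and Naprt, which starts from nicotinic acid, fell by 0.09 units (adjusted p 0.0114). Kmo, of the kynurenine route, rose by 0.11 units (adjusted p 0.00367). Among consumers, Parp2, a relative of Parp1 at DNA breaks, fell by 0.11 units (adjusted p 0.0286), but with the olfactory receptor mean as a covariate the difference was -0.026 units (adjusted p 0.663). Art1, an ADP-ribosyltransferase of muscle, fell by 0.09 units (adjusted p 0.00133), and Tnks2 fell by 0.06 units (adjusted p 0.0303). Parp10 rose by 0.11 units (adjusted p 0.00254), as did Nudt12, an NADH hydrolase, by 0.08 units (adjusted p 0.0234, and 0.0588 with strain as a replicate block).

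**Figure D3:**
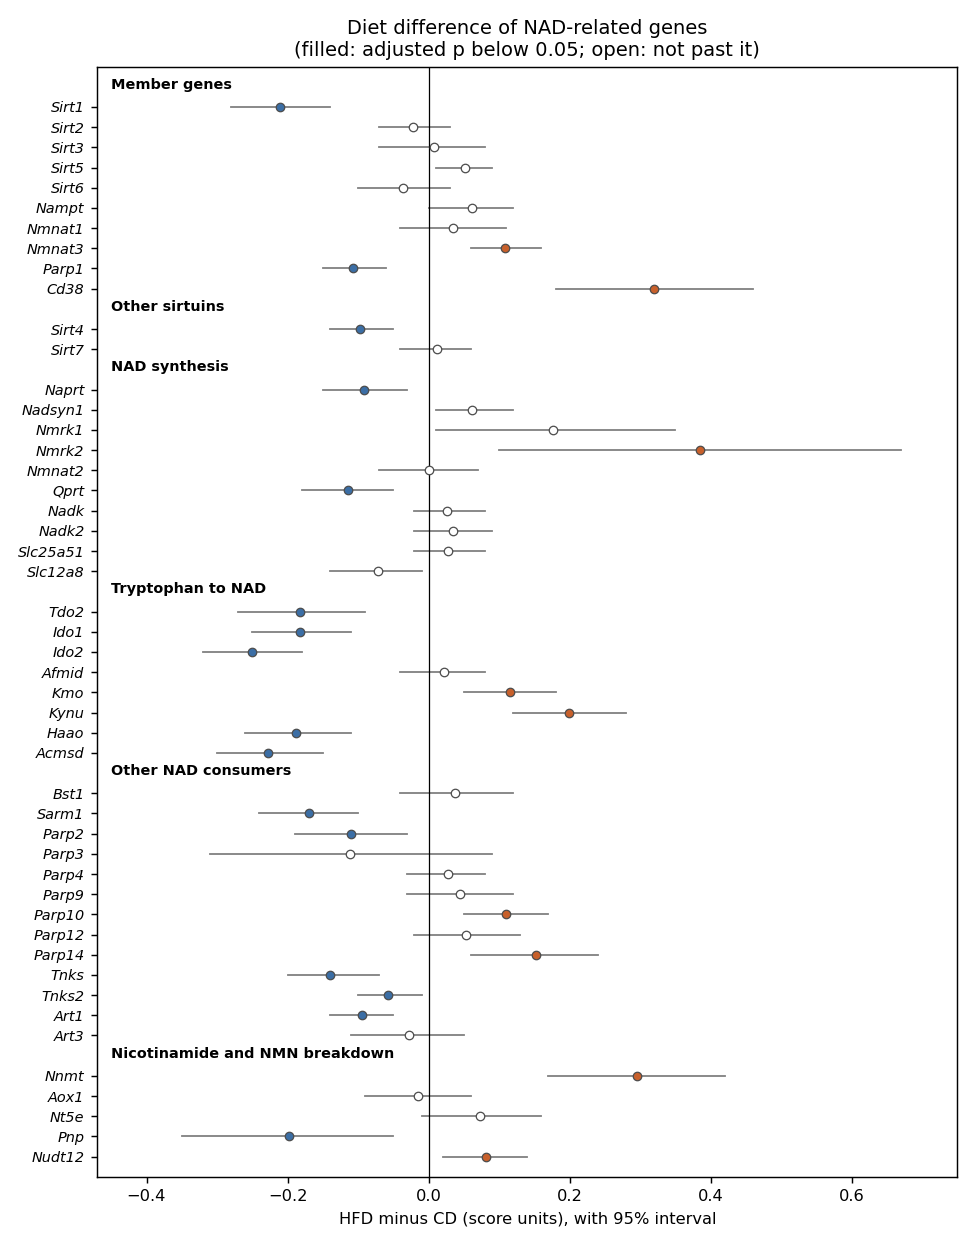
Difference between diets (x axis, HFD minus CD in score units, with 95% interval) for the 10 members and for the 38 other genes of the NAD pathway by branch, where filled points passed an adjusted p of 0.05 and open points did not. Of the members 2 were called on each side of 0, and 5 of the 8 tryptophan genes were called lower.

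Strains differed more in Cd38 than in any other member. Its SD over strains was 0.324 units on CD and 0.297 on HFD, above that of 94.0% and 90.4% of the brighter 50% of probesets, whose median SD was 0.145 and 0.16. The other members had SDs from 0.084 (Parp1) to 0.171 (Nmnat1) on CD and from 0.092 (Sirt5) to 0.175 (Sirt1) on HFD. The range from the lowest to the highest strain was 1.25 units on CD and 1.28 on HFD for Cd38. For the other members it lay between 0.35 (Sirt5) and 0.77 (Sirt3) on CD and between 0.39 (Sirt2) and 0.79 (Sirt6) on HFD. For every member the strain range on each diet was larger than its difference between diets, which a range over many arrays nearly always is. The range also holds array error, so this does not show that strain outweighs diet.

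The response to diet also varied among strains. For Cd38 the per-strain difference had a mean of 0.30 units and an SD of 0.27, and for Sirt1 a mean of -0.22 and an SD of 0.22. With 1 array per strain and diet, this spread holds array error as well as strain. Of the 20 extreme differences, the lowest and the highest of each member, 10 came from the 8 strains whose arrays lay in different batches, which were 21.6% of the strains. The SD of the per-strain difference was larger in those 8 strains than in the other 29 for 9 of the 10 members, for example 0.21 against 0.08 units for Sirt2 and 0.2 against 0.11 for Nampt. The same was true of 62.8% of all probesets. The part of batch in these extremes was not tested.

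The next question was whether strains kept their level between diets. The CD and HFD scores of the 37 paired strains were correlated, with batch means first removed within each diet. Of all probesets 10.6% passed the threshold by Pearson's r and 9.28% by Spearman's rho, and the median r was 0.14. Of the members 3 passed by both, Cd38, Nampt and Nmnat1. For Sirt6 no pooled r is used, because its strains fell into separate clusters. The median r of the other 9 members was 0.139.

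Cd38 had the highest r, 0.631 (permutation p 3e-05, adjusted 0.000994), with rho 0.696 (permutation p 1e-05, the smallest possible, adjusted 0.000495). Of the 5 lowest strains on CD, BXD83, BXD51, BXD55, BXD70 and BXD71, 4 ranked below the median strain on HFD. Of the 5 highest on CD, BXD81, BXD96, BXD68, BXD45 and BXD97, all ranked at or above the median strain on HFD. Leaving out any 1 strain gave r from 0.597 to 0.661, and leaving out the 2 strains farthest from the CD median, BXD81 and BXD83, gave 0.626. By batch, r was 0.798 for the 12 strains profiled wholly in batch 1, 0.62 for the 17 profiled wholly in batch 2 and 0.537 for the 8 whose arrays were split between batches.

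Nampt gave r 0.54 (permutation p 0.00063, adjusted 0.0104) and rho 0.522 (permutation p 0.00099, adjusted 0.0162). All 5 of its highest strains on CD, BXD43, BXD71, BXD85, DBA/2J and BXD49, ranked at or above the median strain on HFD. Without BXD43 and BXD48, the 2 most extreme strains on CD, r was 0.388 (permutation p 0.0212, adjusted 0.157) and the call was lost. Leaving out extremes narrows the range and can lower r in itself, so this does not show that the call rests on them. Leaving out any 1 strain gave r of 0.467 (without BXD48) or more. BXD69, which was low on CD and the highest on HFD, acted the other way, and without it r was 0.669. By batch, r was 0.76 (batch 1) and 0.712 (batch 2), but -0.337 for the 8 split strains.

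Nmnat1 gave r 0.464 (permutation p 0.00369, adjusted 0.0391) and rho 0.538 (permutation p 0.00069, adjusted 0.0124). All 5 of its lowest strains on CD ranked below the median strain on HFD, and all 5 of its highest at or above it. Leaving out any 1 strain gave r from 0.432 to 0.505, and leaving out the 2 farthest, BXD103 and BXD89, gave 0.509. By batch, r was 0.333 (batch 1), 0.624 (batch 2) and 0.197 (split strains).

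For Sirt6 a single strain decided the relation. BXD90 was the highest strain on both diets, at 9.74 on CD and 9.79 on HFD, whereas the other 36 strains ran from 9.03 to 9.44 on CD and from 9.0 to 9.41 on HFD. Over those 36 strains r was 0.154 (permutation p 0.366, adjusted 0.668) and rho 0.112 (adjusted 0.784). The high level was thus measured on separate arrays of the strain, and the other strains kept no order that the test could detect.

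The genes with the clearest fall on HFD kept no detectable strain order. Sirt1 gave r 0.087 (permutation p 0.612, adjusted 0.834) and Parp1 gave -0.028 (permutation p 0.867, adjusted 0.951). Nmnat3, Sirt5 and Sirt3 gave 0.096, 0.08 and 0.139, with adjusted p of 0.81, 0.849 and 0.701 by permutation. Sirt2 gave 0.365 (permutation p 0.0253, adjusted 0.143) and rho 0.361 (permutation p 0.028, adjusted 0.165). By batch, its r was 0.73 (batch 1) and 0.558 (batch 2), but -0.229 for the split strains. An r that misses the threshold does not show that strain has no part in the level of these genes.

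**Figure D4:**
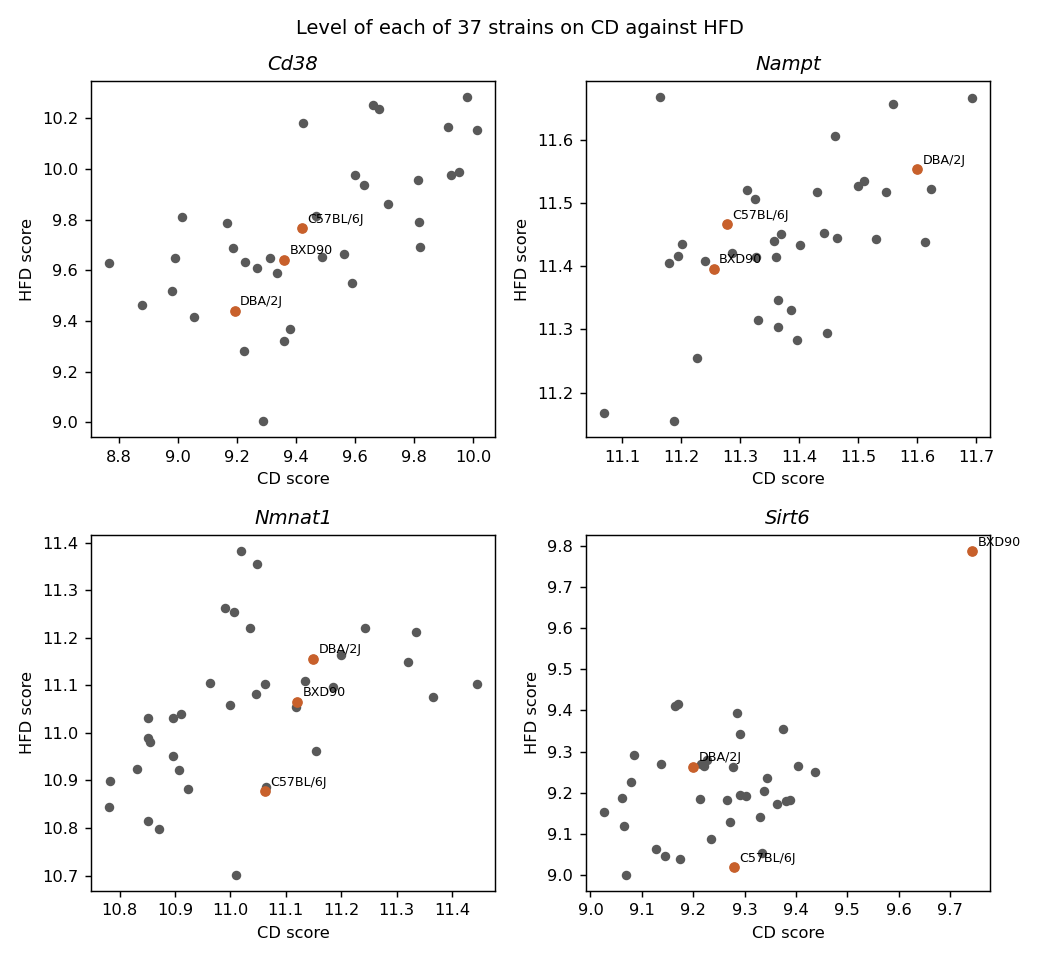
Deposited score on CD (x axis) against HFD (y axis) for Cd38, Nampt, Nmnat1 and Sirt6, with 1 point for each of 37 strains and with BXD90 and both parental strains marked in orange. The points of Cd38 rise together with r 0.631, while the Sirt6 panel shows BXD90 alone at the upper right and no clear order among the other 36 strains.

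The parental strains did not differ in any member by the test used. C57BL/6J was compared with DBA/2J in a fit with 1 array per diet for each parent and the spread borrowed from all paired strains, which called 1.26% of all probesets and 0 of the 10 members, of which 1, Nampt, had an unadjusted p below 0.05. Cd38 was 9.42 on CD and 9.77 on HFD in C57BL/6J, and 9.19 and 9.44 in DBA/2J, so C57BL/6J was higher on both diets. The fitted difference, C57BL/6J minus DBA/2J, was 0.28 units (95% interval -0.11 to 0.66, adjusted p 0.837). Nampt was 11.28 and 11.47 in C57BL/6J, and 11.6 and 11.55 in DBA/2J, a difference of -0.20 units (95% interval -0.4 to -0.01, adjusted p 0.55). For Cd38 on CD the BXD strains ran from 8.77 to 10.01, below and above the parental values of 9.19 and 9.42. The extremes of many arrays can lie outside 1 array per parent through array error alone, so nothing is drawn from this.

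The members were then set against each other over strains, with batch means removed, as a description. Sirt6 was kept apart because of BXD90. Of the 36 pairs of the other 9 members 5 had an absolute r of at least 0.3 on CD and 3 on HFD, and the median absolute r was 0.166 on each diet. Of these 36 only 1 pair passed 0.3 with the same sign on both diets. That pair was Sirt2 and Nampt, with r -0.394 over 42 CD arrays and -0.596 over 37 HFD arrays. A higher score for Nampt thus tended to go with a lower one for Sirt2, loosely on CD, with strains that went against it. Among 12563 genes of the brighter 50% of probesets, 2.71% had a lower r with Nampt than Sirt2 had on CD and 0.0955% on HFD. Seen from Sirt2, 1.89% had a lower r with it than Nampt had on CD and 1.67% on HFD. The arrays of both diets are of the same strains, and they share their scaling.

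No other pair passed 0.3 on both diets. Cd38 and Sirt5 gave 0.397 on CD and 0.196 on HFD. Nampt and Nmnat1, which act in sequence, gave 0.351 on CD and 0.001 on HFD. Sirt1 and Sirt2 gave 0.162 on CD and -0.458 on HFD. Signs were the same on both diets in 20 of the 36 pairs. The pairs with Sirt6 were computed without BXD90, over 41 CD and 36 HFD arrays, a choice made after the data were seen. Sirt2 and Sirt6 then gave 0.304 on CD and -0.009 on HFD, Sirt5 and Sirt6 gave 0.356 and 0.002, and Parp1 and Sirt6 gave 0.221 and 0.417.

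**Figure D5:**
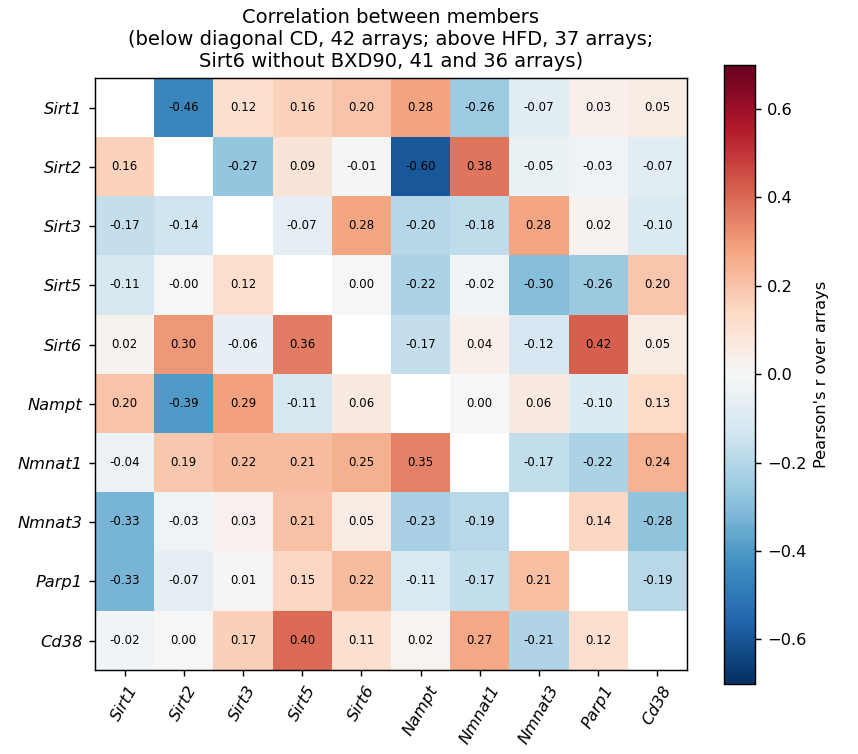
Pearson's r of each pair of members over arrays after batch means were removed, with 42 CD arrays below the diagonal and 37 HFD arrays above it (pairs with Sirt6 without BXD90, 41 and 36 arrays), blue for negative and red for positive r. Sirt2 with Nampt, at -0.394 and -0.596, is the only pair with an absolute r of at least 0.3 on both diets, and most other pairs are pale.

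The genes most alike to each member were taken from 12563 others by their r over the CD arrays. For Sirt3 these were Uqcrc1, a subunit of respiratory complex III (r 0.786 on CD and 0.7 on HFD), Ppif, the cyclophilin of the mitochondrial matrix (0.777 and 0.671), and Ckmt2, the mitochondrial creatine kinase of muscle (0.77 and 0.476). On HFD Uqcrc1 ranked 2nd and Ppif 4th for likeness to Sirt3. For Sirt1 they were Tbp, the TATA-binding protein (0.787 and 0.749), Nufip1 (0.779 and 0.707) and Fcho2 (0.778 and 0.462). For Parp1 they were Stac3, a protein of muscle excitation and contraction coupling (0.689 and 0.416), Arl3 (0.673 and 0.435) and Pgam2, the muscle phosphoglycerate mutase (0.661 and 0.199).

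For Nampt the most alike genes were Xpo1, a nuclear export receptor (0.642 and 0.649), Mrrf (0.632 and 0.439) and Srpk1 (0.627 and 0.522). For Nmnat1 they were Rex2 (0.755 and 0.609), Mtor, the growth kinase (0.742 and 0.654), and a probeset without a gene that is named for a long terminal repeat (0.736 and 0.812). Rex2 and Mtor lie on the chromosome of Nmnat1, with 42 and 15 protein-coding genes between in the RefSeq order. Sirt2 was most alike to Tpp1 (0.737 and 0.46), Mapk12 (0.711 and 0.62) and Plagl2 (0.706 and 0.223).

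For the remaining members every gene had a lower r on HFD, as above for all but Xpo1 and the long terminal repeat probeset. Cd38 went with Brms1l (0.601 and 0.262), Ets1, a transcription factor of lymphoid and endothelial cells (0.588 and 0.383), and Pitpnm2 (0.586 and 0.119). Sirt5 went with Sbf2 (0.628 and 0.467), Efnb2 (0.616 and 0.33) and Rasal2 (0.604 and 0.502). For Sirt6 the genes were Flot2, Pkdcc and Pbx2, chosen with BXD90 among the arrays. Without BXD90 their r was 0.644 and 0.217 for Flot2, 0.664 and 0.035 for Pkdcc, and 0.597 and 0.215 for Pbx2. Nmnat3 went with N28178 (0.677 and 0.252), Relb (0.637 and -0.069) and Gm9573 (0.621 and 0.01). Since the genes were picked as the highest r on CD, a lower r on HFD follows in part from that choice.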

How the data were processed

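RNA of quadriceps pools was hybridised to Affymetrix Mouse Gene 1.0 ST arrays, 1 per strain and diet. The values deposited by the authors are a score per probeset, with a mean of 8.0 and an SD of 2.0 on every array. The submitters' processing notes name Affymetrix Expression Console. Its version, the summarization, the log base and any batch correction are not given in the sources used here. Groups, strains and batches come from the sample titles. A column headed BXD92 was assigned to BXD92a, the only title that matches. Precision is limited by the number of arrays.

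The members and the lists were chosen with earlier results of these data known. Differences between diets were fitted with limma (version 3.58.1, R 4.3.3, lmFit and eBayes) with diet and batch as terms over 79 arrays and all 35556 probesets, with Benjamini-Hochberg adjustment. These models had been chosen for log2 data and were applied to the deposited score, which is log-like. The parental contrast came from a fit with 1 coefficient per strain, diet and batch. Cross-diet r and rho used two-sided permutation tests with 100000 draws on every probeset, adjusted over all of them. No pooled r is given for a member whose strain means formed separate clusters (BIC of a mixture of 2 normals, from scikit-learn 1.9.0, lower by 10 or more than that of 1 normal, with Ashman's D above 2). The fits were tested on simulated data. The pairing of arrays comes from the strain names. Deviations of arrays of the same strain from the diet means correlated with a median r of 0.205 over probesets, above 0.1 in 33 of 37 strains.

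The text names the 10 members, the 12 called genes of the wider NAD list with the largest differences (the other 9 were named after their values were seen), the 3 genes most alike to each member and the marker lists. Values of every strain were drawn for the called members. The list used current names for Naprt1, Itgb1bp3 and Mcart1. Promoter motifs were chosen after the members' values were seen. Marker means as covariates, the correlation without BXD90, and the diet fit without BXD51 and BXD66, were alternatives added after the data were seen. Other software was matplotlib 3.10.9, numba 0.67.0, scipy 1.17.1, pandas 2.3.3, numpy 2.4.6 and Python 3.11.15.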

Additional observations from a re-analysis of the deposited data

How the results depend on the processing

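Each of the 4 called members kept its direction and its call under all 17 alternatives of the diet fit, except Nmnat3 with batch 1 arrays alone. Strain as a replicate block gave 5 calls among the 10 members, the 4 and Nampt, and changed no other member's call. It gave 22 calls in the wider list, of which 20 were shared with the 21. The same list gave 8 calls with batch 1 arrays alone, from fewer arrays, and 12 without dim probesets, which leave 24 of the genes. Over the other alternatives it gave 14 (batch 2 alone) to 22 calls. Small differences changed sign without a call. Sirt2 was 0.009, 0.005 and 0.001 units with the adipocyte, macrophage and olfactory receptor means as covariates, and Sirt3 was -0.033, -0.028, -0.027 and -0.007 units with the adipocyte, endothelial and macrophage means and after a further quantile normalization. The cause was not tested.

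Of the 9 members with a pooled r, 3 were called over 37 strains. Fewer strains gave fewer calls, with 0 for the 12 strains wholly in batch 1, 1 for the 17 wholly in batch 2 and 0 for the 8 split between batches. For the split strains r was -0.214 for Sirt1, -0.229 for Sirt2, -0.457 for Sirt5 and -0.337 for Nampt, while Nmnat3 gave -0.219 in batch 2 and Parp1 gave 0.479 in batch 1 and 0.115 without BXD68 and BXD98, its 2 farthest strains on CD. No parental call was made under any alternative, and with 1 array per parent and diet small parental differences could not be detected. Other probesets of a member could not be tried, since each has 1. The difference of the diet effect between batches gave 0 calls for members and for all probesets by limma, and 0 at an unadjusted p below 0.05, a pattern of values already centred by batch within each diet, so this test says nothing about stability.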

Other observations

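For a pair of genes of the wider list that were not called between diets, the strains fell into clusters by their mean score over both diets. They were chosen once their values were known. Parp3, a PARP that acts at DNA breaks, fell into separate clusters of strains. In 18 strains its score ran from 10.7 to 11.14 on CD and from 10.54 to 11.15 on HFD. In the other 19 strains it ran from 9.84 to 10.25 on CD and from 9.84 to 10.19 on HFD. The clusters did not overlap on either diet, which follows in part from assigning strains by these same scores. C57BL/6J (11.03 on CD and 10.68 on HFD) lay in the higher cluster and DBA/2J (10.12 and 10.03) in the lower one. The parental difference was 0.78 units and was past the threshold (limma, adjusted p 6.98e-06). Between diets r was 0.585 within the higher cluster and 0.202 within the lower one.

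Nmrk1, which like Nmrk2 phosphorylates nicotinamide riboside, also fell into clusters, of 20 and 17 strains. The higher cluster, with C57BL/6J, ran from 7.62 to 8.0 on CD and from 7.67 to 8.25 on HFD. The lower one, with DBA/2J, ran from 6.71 to 7.7 on CD and from 6.81 to 7.66 on HFD. The scores of the clusters overlapped on CD alone. Between diets r was -0.073 within the higher cluster and 0.428 within the lower one. The parental difference was 0.70 units (limma, adjusted p 0.0171), on a probeset at the 43.8th percentile of brightness. Nmrk2 kept its strain order without such clusters, with r 0.548 (permutation adjusted p 0.00594) and rho 0.697.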
